A study of Homo sapiens with 8 samples.

Results

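The genes described here encode 10 proteins that set the shape and inner membrane folds of mitochondria, and were taken by symbol as MFN1, MFN2, OPA1, DNM1L, MFF, FIS1, OMA1, YME1L1, PINK1 and CLPB from a table of 25168 genes. All 10 were present as 1 row each, and all 10 passed the filter on low counts that left 12843 genes for testing. Mitochondria fuse and divide continuously. MFN1 and MFN2 join outer membranes, and OPA1 joins inner membranes and holds the necks of the cristae, the folds that store cytochrome c, while the dynamin-like GTPase DNM1L, recruited by receptors such as MFF and FIS1, constricts mitochondria and divides them. Venetoclax inhibits BCL2, which guards the outer membrane against permeabilisation, and cristae control by OPA1 and CLPB has been linked to how leukemia cells respond to it. DNM1L is itself a protein to which SUMO can be attached.

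RNA sequencing was done on KG1a, an established human acute myeloid leukemia line of immature phenotype, so every result concerns 1 line. Cells received DMSO vehicle (0 µM of either drug), TAK-981 at 5 µM, venetoclax at 1 µM, or both drugs at those doses, each for 48 h, with 2 libraries per group and 8 in all. TAK-981 blocks the first step of SUMO conjugation, in which SUMO is activated for attachment to proteins. The labels do not state whether the pair of libraries in a group grew as separate cultures. The p-values therefore reflect library-to-library spread, part or all of which may be technical.

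Library totals ran from 13204588 to 26304900 counts. The venetoclax libraries stood apart from each other. Over 9858 genes with a mean level of at least 5 CPM (TMM-scaled counts relative to library size), they differed by a median of 0.26 log2 units, against 0.088 to 0.10 in the other groups. That spread enters every test, because the 4 groups share 1 estimate of it. Of 8 hematopoietic markers, CD34, PTPRC, SPN, RUNX1 and FLI1 averaged 357 to 1200 CPM, CD7 12 CPM, and the myeloid genes CD33 and MPO 1.1 and 0.184 CPM. Their summed level was 3320 to 3440 CPM in vehicle, 3900 to 4030 with TAK-981, 3230 to 4110 with venetoclax and 3520 to 3550 with the combination. Against vehicle SPN, CD33 and MPO were called higher with TAK-981, CD34 higher with venetoclax, and SPN and CD33 higher and PTPRC lower with the combination. MPO had 0 counts in the vehicle and venetoclax libraries and at most 12 in any other. The 3 B cell markers summed to 0.171 to 0.347 CPM in vehicle, 0.688 to 1.23 with TAK-981, 0.228 to 0.39 with venetoclax and 0.823 to 1.46 with the combination, where CD79A was called higher than in vehicle. The erythroid, stromal and epithelial marker lists summed to at most 0.218 CPM in any library, with HBB, HBA1, COL1A2, DCN and EPCAM at 0 counts throughout. Of the 3 T cell markers, CD3D and CD3E were expressed and CD2 had at most 1 count. Their summed level was 37.3 to 50 CPM in vehicle, 45.2 to 46.7 with TAK-981, 30.7 to 42.6 with venetoclax and 23.5 to 27.4 with the combination. The sum hides opposite shifts with TAK-981. CD3D went from 24.0 and 34.4 CPM in vehicle to 36.8 and 38.7, and CD3E from 13.3 and 15.6 to 8.34 and 8.02, which was called lower. With the combination 1 of the 2 tested T cell genes was called lower than in vehicle. RN7SK and RN7SL1, RNAs without poly(A) tails, also moved with treatment. RN7SK stood at 2.91 and 3.29 CPM in vehicle, 8.81 and 5.72 with TAK-981, 10.4 and 9.12 with venetoclax and 56.7 and 91.4 with the combination. The part of these shifts in the results below was not tested.

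Levels of different genes were compared as CPM per kilobase of the gene length in the deposited table. In vehicle the inner membrane protease gene YME1L1 was highest, at a mean of 41.0 CPM per kb. It was followed by DNM1L at 31.2, OPA1 at 26.7, MFN2 at 17.9, MFF at 15.2, MFN1 at 9.43, FIS1 at 8.93 and CLPB at 7.95. PINK1 at 3.13 and OMA1 at 2.96 CPM per kb closed the order, and they were the only neighbours in it whose vehicle libraries overlapped. The first 5 places were the same in all 4 groups, although with venetoclax the libraries of MFN2 and MFF overlapped. The order of the lower places varied. FIS1 stood above MFN1 in the TAK-981 and combination groups and below it in the vehicle and venetoclax groups, and PINK1 ranked below OMA1 only with venetoclax, where PINK1 averaged 2.35 and OMA1 3.43 CPM per kb.

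**Figure D1:**
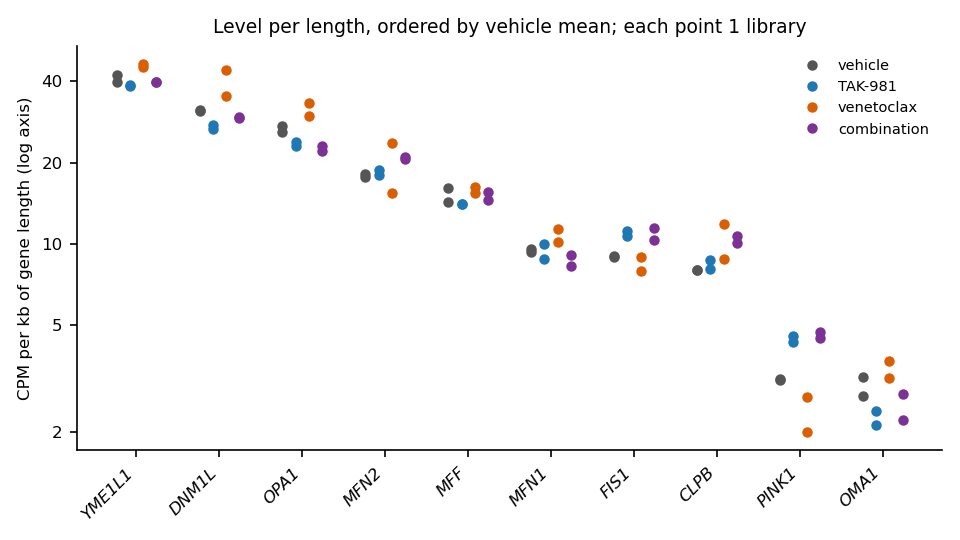
Level of each gene as CPM per kilobase on a log axis, with 1 point per library and 1 colour per group, ordered by the vehicle mean. YME1L1, DNM1L and OPA1 lead in every group, and PINK1 and OMA1 lie lowest, with PINK1 at 2.002 and 2.69 in the venetoclax libraries and 4.47 and 4.70 with the combination.

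Most of the set was not called in any comparison. An adjusted p under 0.05 in edgeR's quasi-likelihood test, adjusted over all 12843 genes, counted as a call. With TAK-981 alone 0 of 10 were called, where 12.2% of all genes were. With venetoclax alone 0 of 10 were called against 20.8% of all genes, and with the combination against vehicle 1 of 10 against 27.9%. Between the combination and venetoclax alone 3 of 10 were called against 39.6%, and between the combination and TAK-981 alone 0 of 10 against 8.80%. In none of the comparisons was the share of the set above that of all genes. At an unadjusted p under 0.05 the counts were 1 with TAK-981, 4 with venetoclax and 0 for the combination against TAK-981. Shares of all genes at this unadjusted threshold are not given, here or below, so such counts have no background beside them. DESeq2 and limma-voom also called 0 in these 3 comparisons.

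The groups' CPM ranges did not overlap in 8 of 10 genes between TAK-981 and vehicle, 6 between venetoclax and vehicle, and 7, 7 and 5 between the combination and vehicle, venetoclax and TAK-981. The shares of all genes were 65.3%, 58.2%, 72.6%, 68.8% and 65.3%, so non-overlap of 2 libraries with 2 was common throughout. The median log2 fold change of the 10 genes was -0.049, 0.18, -0.028, -0.14 and 0.077 in the same order, beside 0.0015, 0, 0.012, -0.021 and 0.016 over all genes. The plot of levels by library shows how small most shifts were against the scale of each gene.

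**Figure D2:**
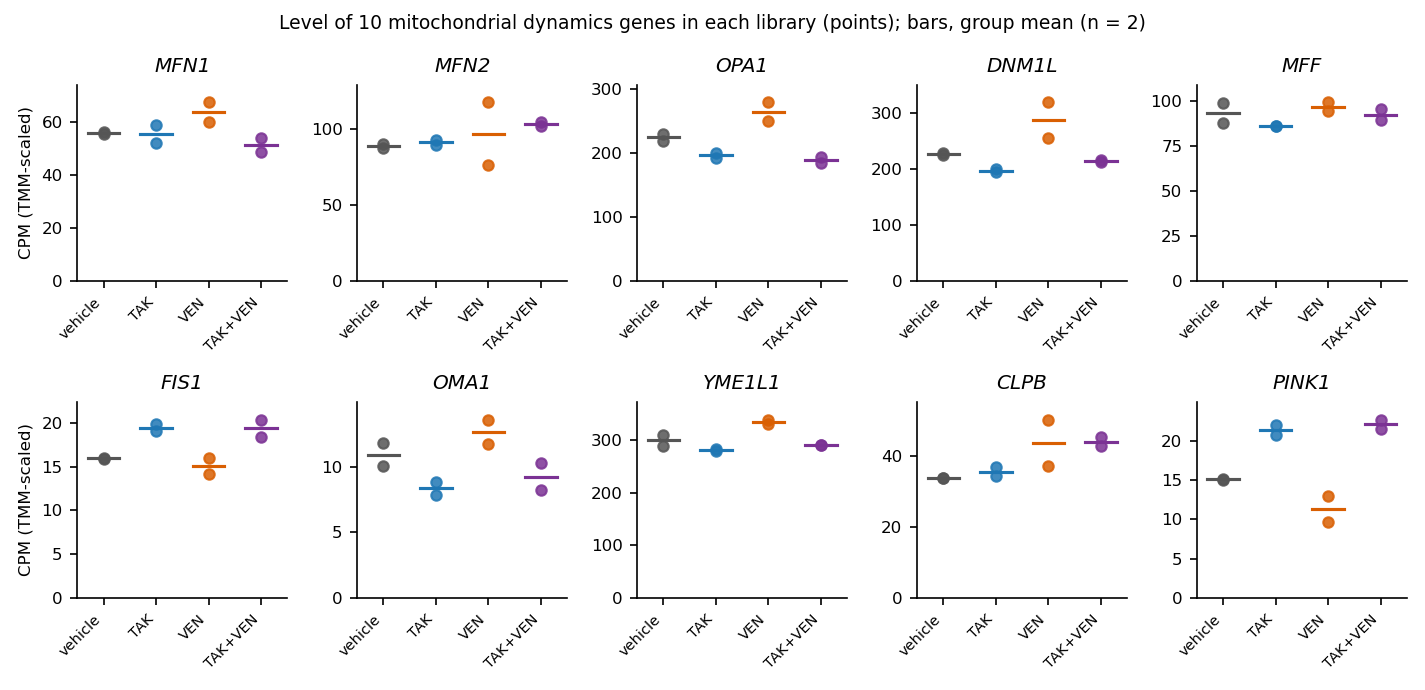
CPM of each of the 10 genes in each library (points) with the group mean (bars, n = 2), for vehicle, TAK-981 (TAK), venetoclax (VEN) and the combination (TAK+VEN), each axis starting at 0. PINK1 has the widest range relative to its level, from 9.67 to 22.7 CPM, and the venetoclax libraries lie far apart for MFN2, at 76.2 and 117 CPM.

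PINK1, the kinase that accumulates on damaged mitochondria and starts their removal by mitophagy, was the gene of the set that changed most. It lies on chromosome 1, 20633455 to 20651511 on the plus strand (hg38). Its level was 15.2 and 15.1 CPM in vehicle, 20.8 and 22.0 with TAK-981, 9.67 and 13.0 with venetoclax and 21.6 and 22.7 with the combination. Every library that received TAK-981 lay above every library that did not, and both venetoclax libraries lay below both vehicle libraries. PINK1 rose in the combination against venetoclax by 0.95 log2 units (SE 0.16, 95% interval 0.58 to 1.31, adjusted p = 0.00235), a mean CPM 95.3% higher. This call held in all 15 alternative analyses, with values of 0.76 to 1.18. PINK1 also rose in the combination against vehicle, by 0.55 (SE 0.16, adjusted p = 0.0292). That second call was lost on leaving out any single library outside the venetoclax group (6 of 6 cases, adjusted p 0.0614 to 0.157), with values of 0.51 to 0.58, and held without either or both venetoclax libraries.

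With TAK-981 alone the log2 fold change of PINK1 was 0.50 (SE 0.16, 95% interval 0.15 to 0.85), which missed the threshold with all 8 libraries (adjusted p = 0.0718). It passed without venetoclax replicate 1 (0.49, adjusted p = 0.00305), without replicate 2 (0.50, adjusted p = 0.0028) and with the 4 libraries of the comparison alone (0.51, adjusted p = 0.00189), and also with no filter on low counts (0.50, adjusted p = 0.0404). With venetoclax alone PINK1 stood at -0.40 (SE 0.16, adjusted p = 0.108), and it was called only without venetoclax replicate 2 (-0.65, adjusted p = 0.00434). Against TAK-981 alone the combination gave a PINK1 difference of 0.050, with a 95% interval of -0.30 to 0.40. The 4 libraries of these groups lay between 20.8 and 22.7 CPM.

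An antisense gene, PINK1-AS, overlaps PINK1 by 8855 bases on the opposite strand, and the strand setting of the counting is not given, so reads of the pair cannot be told apart. PINK1-AS stood at 7.60 and 7.21 CPM in vehicle, 8.47 and 9.84 with TAK-981, 9.67 and 10.2 with venetoclax and 11.1 and 14.6 with the combination. It rose with the combination against vehicle by 0.78 log2 units (SE 0.18, adjusted p = 0.0117). Against venetoclax its difference was 0.36 (adjusted p = 0.142), and with venetoclax alone it was 0.43 (adjusted p = 0.125), the opposite sign to that of PINK1.

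OPA1, the inner membrane fusion GTPase, had 219 and 230 CPM in vehicle, 200 and 193 with TAK-981, 280 and 250 with venetoclax and 185 and 194 with the combination. The 4 libraries with TAK-981 lay below vehicle and the 2 venetoclax libraries above it. OPA1 fell in the combination against venetoclax by 0.48 log2 units (-0.48, SE 0.097, 95% interval -0.70 to -0.26, adjusted p = 0.00497), a change of -28.5% in mean CPM. That call held in 14 of 15 alternatives and was lost with the 4 libraries of the comparison alone (-0.44, adjusted p = 0.0614). Against vehicle the log2 fold changes of OPA1 were -0.19 with TAK-981 (adjusted p = 0.243), 0.24 with venetoclax (adjusted p = 0.111) and -0.25 with the combination (adjusted p = 0.091). The TAK-981 and combination values both passed once the venetoclax libraries were left out, at -0.19 (adjusted p = 0.0381) and -0.25 (adjusted p = 0.00709). OPA1 lies on chromosome 3, 193593144 to 193697823 on the plus strand, and its antisense gene OPA1-AS1 had 0 counts in all 8 libraries.

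DNM1L, the fission GTPase, was like OPA1 highest with venetoclax and lower than vehicle in the 4 libraries with TAK-981, but its lowest group was TAK-981 alone and not the combination. Its level was 225 and 228 CPM in vehicle, 194 and 200 with TAK-981, 319 and 255 with venetoclax and 212 and 215 with the combination. DNM1L fell in the combination against venetoclax by 0.43 log2 units (-0.43, SE 0.12, 95% interval -0.69 to -0.17, adjusted p = 0.0172). The value was -0.43 without combination replicate 1 and -0.44 without combination replicate 2, and neither was called. The call was also lost with the 4 libraries of the comparison alone (-0.38, adjusted p = 0.118). Without venetoclax replicate 1, whose DNM1L level was the highest of the 8, the difference was -0.27 and still called, and without venetoclax replicate 2 it was -0.59. With TAK-981 alone the value was -0.20 (adjusted p = 0.302, and 0.0259 without the venetoclax libraries), and with venetoclax alone it was 0.34 (adjusted p = 0.0627). The venetoclax value ran from 0.18 to 0.50 over 15 alternatives, of which 2 called it. DNM1L (chromosome 12, 32679200 to 32745650, plus strand) is overlapped over 18161 bases by YARS2 on the opposite strand, which had 21.3 to 31.2 CPM and rose with venetoclax by 0.45 (SE 0.13, adjusted p = 0.0417).

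**Figure D3:**
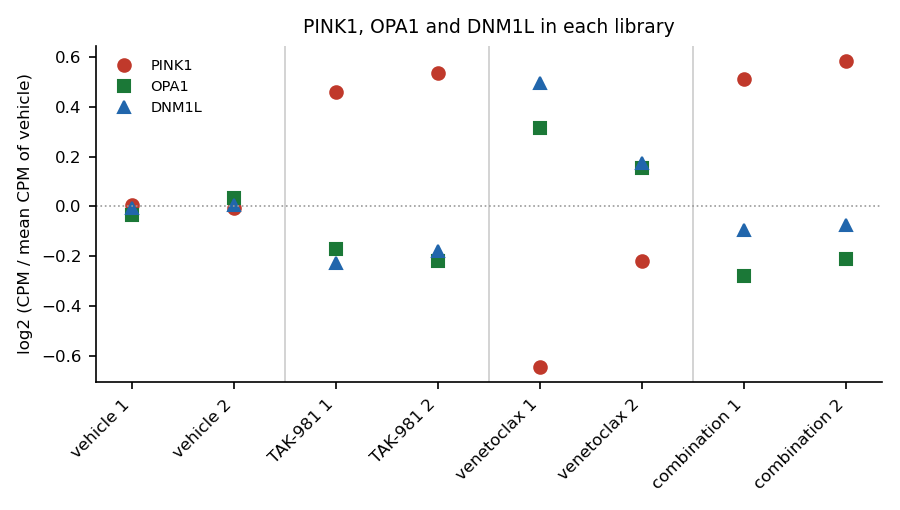
Level of PINK1, OPA1 and DNM1L in each of the 8 libraries as log2 of CPM over the mean CPM of vehicle, with 1 symbol per gene. PINK1 lies above 0 in the 4 libraries with TAK-981 and below 0 with venetoclax alone, and OPA1 and DNM1L lie on the other side of 0 in each of these libraries.

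Across the 8 libraries the log2 CPM of OPA1 and DNM1L had a Pearson correlation of 0.92, and those of PINK1 with OPA1 and with DNM1L were -0.98 and -0.93. FIS1 correlated with PINK1 at 0.96 and with OPA1 at -0.90. These are descriptions over 8 libraries in 4 groups that share the same totals and scaling. Because OPA1 and DNM1L moved together and FIS1 stood opposite, their promoter windows are shown, each from 250 bases before to 50 bases after the annotated start, 5′ to 3′ on the gene's strand, from RefSeq (GRCh38.p14). They span chr3:193592958-193593257 on the plus strand for OPA1, chr12:32679051-32679350 on the plus strand for DNM1L and chr7:101245032-101245331 on the minus strand for FIS1. The deposited counts place FIS1 at 101239458 to 101252316 on the minus strand, so its window lies inside the gene as counted. Capitals mark matches to the motifs searched.
OPA1: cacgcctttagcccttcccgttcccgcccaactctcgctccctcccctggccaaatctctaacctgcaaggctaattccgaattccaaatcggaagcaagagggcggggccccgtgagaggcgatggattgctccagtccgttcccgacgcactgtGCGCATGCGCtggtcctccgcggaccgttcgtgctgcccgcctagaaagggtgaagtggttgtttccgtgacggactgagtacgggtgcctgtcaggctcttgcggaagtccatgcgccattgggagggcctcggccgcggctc
DNM1L: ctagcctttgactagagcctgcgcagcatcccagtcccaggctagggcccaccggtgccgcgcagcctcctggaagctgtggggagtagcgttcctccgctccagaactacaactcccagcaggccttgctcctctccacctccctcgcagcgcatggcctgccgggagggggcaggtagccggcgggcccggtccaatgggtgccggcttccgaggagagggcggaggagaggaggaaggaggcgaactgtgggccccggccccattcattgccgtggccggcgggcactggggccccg
FIS1: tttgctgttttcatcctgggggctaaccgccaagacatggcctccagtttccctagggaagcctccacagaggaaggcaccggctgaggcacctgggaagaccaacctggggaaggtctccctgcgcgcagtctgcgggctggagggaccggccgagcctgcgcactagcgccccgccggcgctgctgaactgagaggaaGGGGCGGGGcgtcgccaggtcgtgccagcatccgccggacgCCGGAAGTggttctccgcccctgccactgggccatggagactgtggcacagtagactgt

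The capitals in OPA1 are the 10-letter palindrome bound by NRF1, a regulator of nuclear genes for mitochondria, which was present in 1.24% of 35114 windows of the same length. Those in FIS1 are an SP1 motif, GGGGCGGGG (15.7% of windows), and an ETS motif, CCGGAAGT (4.14%). The DNM1L window held none of the 7 motifs. The others searched, on both strands, were the E-box CACGTG (7.26%), the hypoxia motif ACGTG (21.4%), which lies within that E-box, the CRE TGACGTCA (1.85%) and the ATF4 motif TGATGNAA (3.62%). RefSeq windows matched 8 of the 10 genes, not PINK1 and YME1L1. Among the remaining windows the ETS motif was in that of MFN1 and the hypoxia motif in that of CLPB and in 1 of the 3 of MFF. A match describes the letters and is not a site of binding.

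By the same measure the genes most like PINK1, out of 9721 compared, were the transcription elongation kinase CDK9 (Pearson r = 0.995 over 8 libraries), the ubiquitin ligase MARCH8 (0.994) and SH3BP1 (0.992). Those most like OPA1 were the telomere protein TERF1 (0.995), the mitochondrial import chaperone TIMM9 (0.993) and the translation factor subunit EIF3M (0.989). For DNM1L they were NAF1, which assembles small nucleolar ribonucleoproteins (0.998), the mitochondrial ribosomal protein MRPL37 (0.995) and the mitochondrial initiation factor MTIF2 (0.989). These 3 genes of the set were the ones that passed a test of any difference among the 4 groups, which 49.1% of all genes passed.

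The mitofusins, which tether and fuse outer membranes, gave no call in any comparison. MFN1 had 55.5 and 56.5 CPM in vehicle, 59.0 and 52.2 with TAK-981, 60.1 and 67.6 with venetoclax and 48.9 and 54.0 with the combination. The venetoclax libraries were the highest and those of the combination lay below vehicle. Its largest difference was that of the combination against venetoclax, -0.32 (SE 0.11, adjusted p = 0.0516), which limma-voom called (-0.33, adjusted p = 0.0473) and which passed without venetoclax replicate 1 (-0.41, adjusted p = 0.00527). MFN2 had 90.0 and 87.3 CPM in vehicle, 92.9 and 89.1 with TAK-981, 76.2 and 117 with venetoclax and 104 and 102 with the combination. The MFN2 venetoclax libraries lay on either side of all others, and the sign of the venetoclax effect turned with the library left out, from -0.22 without replicate 2 (adjusted p = 0.0619) to 0.41 without replicate 1 (adjusted p = 0.00174). Against vehicle the combination gave MFN2 0.22 (SE 0.17, adjusted p = 0.376, and 0.0183 without the venetoclax libraries). The ratio of MFN1 to MFN2 counts was 0.616 and 0.647 in vehicle, 0.635 and 0.586 with TAK-981, 0.789 and 0.576 with venetoclax and 0.469 and 0.530 with the combination. The combination held the lowest 2 ratios of the 8, a difference that was not tested.

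Per kilobase of gene length, the group means of the fission receptor MFF ran from 14.0 CPM (TAK-981) to 15.8 (venetoclax). Those of FIS1 ran from 8.44 (venetoclax) to 10.9 (TAK-981). MFF, the main outer membrane receptor of DNM1L, had 88.0 and 98.9 CPM in vehicle, 86.0 and 86.1 with TAK-981, 94.4 and 99.5 with venetoclax and 89.4 and 95.7 with the combination. It had the narrowest range of the set together with YME1L1, and its fitted differences over the 5 comparisons of groups ran from -0.12 to 0.10. The 95% interval of MFF for venetoclax against vehicle was -0.17 to 0.27. FIS1, a small outer membrane protein linked to fission, had 15.9 and 16 CPM in vehicle, 19.9 and 19.0 with TAK-981, 14.2 and 16 with venetoclax and 18.4 and 20.4 with the combination. As for PINK1, each FIS1 library with TAK-981 lay above each one without. The log2 fold changes were 0.29 with TAK-981 (SE 0.13, adjusted p = 0.21), 0.28 with the combination (SE 0.14, adjusted p = 0.157) and 0.36 for the combination against venetoclax (SE 0.14, adjusted p = 0.0651), none of which was called with all 8 libraries. The last had a 95% interval of 0.048 to 0.67. It ran from 0.27 to 0.44 over 15 alternatives, of which 2 called it.

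The 2 proteases that cleave OPA1 and the chaperone CLPB were not called in any comparison either. OMA1, the stress-activated protease that cuts OPA1, had 10.1 and 11.8 CPM in vehicle, 7.87 and 8.88 with TAK-981, 13.6 and 11.8 with venetoclax and 8.23 and 10.3 with the combination. With 141 to 302 counts per library it was among the least deeply counted of the set, and its intervals were the widest, such as -0.80 to 0.017 around -0.39 for TAK-981 against vehicle (adjusted p = 0.207). The largest OMA1 difference was -0.46 for the combination against venetoclax (95% interval -0.87 to -0.047, adjusted p = 0.0732). It ran from -0.62 to -0.31 over 15 alternatives. YME1L1, which processes OPA1 constitutively, had 290 and 310 CPM in vehicle, 281 and 284 with TAK-981, 332 and 340 with venetoclax and 292 in each combination library. Its largest difference was -0.20 for the combination against venetoclax (SE 0.092, adjusted p = 0.108). The OMA1 gene is overlapped almost whole by DAB1 on the same strand, which had 7 to 29 counts per library, and YME1L1 by MASTL over 443 bases. In the combination against venetoclax DAB1 rose by 0.99 (adjusted p = 0.0465) and MASTL fell by 0.72 (adjusted p = 0.00371).

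CLPB, an intermembrane space chaperone that keeps proteins there soluble, had 33.8 and 33.7 CPM in vehicle, 34.3 and 36.8 with TAK-981, 37.2 and 50.2 with venetoclax and 42.7 and 45.4 with the combination. Each library with venetoclax lay above each one without. The log2 fold changes were 0.38 with venetoclax (SE 0.14, adjusted p = 0.0905), 0.38 with the combination against vehicle (SE 0.14, adjusted p = 0.0777) and 0.31 against TAK-981 (SE 0.14, adjusted p = 0.226). Without both venetoclax libraries the last pair of differences passed, at 0.38 (adjusted p = 0.00248) and 0.31 (adjusted p = 0.0169). Venetoclax alone depended on the library, with 0.14 without replicate 2 and 0.58 without replicate 1, the latter called (adjusted p = 0.000675). With TAK-981 alone CLPB stood at 0.074, with a 95% interval of -0.25 to 0.40.

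**Figure D4:**
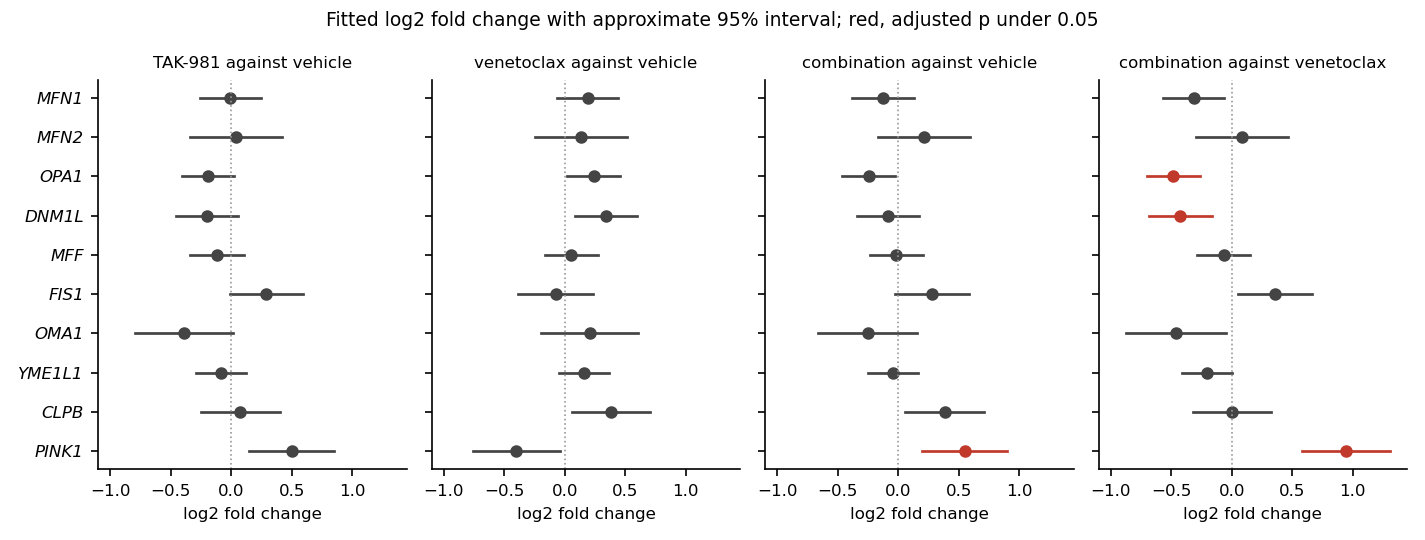
Fitted log2 fold change (x axis) with its approximate 95% interval for the 10 genes in 4 comparisons, red where the adjusted p is under 0.05. Red marks PINK1 at 0.55 in the combination against vehicle, and PINK1 at 0.95, OPA1 at -0.48 and DNM1L at -0.43 in the combination against venetoclax.

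The interaction asks whether the effect of TAK-981 differed in the presence of venetoclax. It called 0 of 10 genes by edgeR's quasi-likelihood test, with 0 at an unadjusted p under 0.05 and 0 by DESeq2 and limma-voom, and 0.0311% of all genes (4 genes). The widest values were 0.45 for PINK1 (95% interval -0.056 to 0.96), -0.31 for MFN1 and -0.29 for OPA1. Without venetoclax replicate 2 the interaction called PINK1 (0.68, adjusted p = 0.0133), MFN2 (0.38), OPA1 (-0.38) and DNM1L (-0.39), a setting in which 33.9% of all genes were called. An effect of TAK-981 on PINK1, OPA1 or DNM1L that differs with and without venetoclax was therefore not shown with all 8 libraries.

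Other genes of these pathways were read from 6 lists of 69 genes, of which 69 were in the table and 68 were tested. With TAK-981 alone only 1 was called, the inner membrane protease subunit AFG3L2, which fell by 0.36 log2 units (SE 0.097, adjusted p = 0.0433), while 5.98% of all genes were higher and 6.18% lower. That call was lost without any 1 vehicle, TAK-981 or combination library.

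With venetoclax alone some genes that shape cristae rose. The list of MICOS, the complex at the neck of the cristae, and other genes of cristae organisation held 15 tested genes. Of these, 6 rose and 0 fell with venetoclax (40% higher, against 11.4% of all genes higher and 9.44% lower). The list median was 0.31, beside 0 for all genes. APOO, a MICOS subunit, had 7.21 and 7.68 CPM in vehicle, 6.88 and 5.78 with TAK-981, 16.4 and 14.3 with venetoclax and 7.45 and 7.79 with the combination. CHCHD3, another subunit, had 34.7 and 38.3 CPM in vehicle, 28.7 and 24.3 with TAK-981, 69.1 and 54.0 with venetoclax and 31.7 and 31.5 with the combination. For both subunits the venetoclax libraries stood alone above all others. The log2 fold changes were 1.04 for APOO (SE 0.17, adjusted p = 0.00493), 0.75 for CHCHD3 (SE 0.14, adjusted p = 0.00928), 0.74 for the MICOS partner DNAJC11 (SE 0.095, adjusted p = 0.00259) and 0.49 for the ion exchanger gene LETM1 (SE 0.094, adjusted p = 0.00897). IMMT, the core of MICOS, at 0.41 and MINOS1, which bends the membrane, at 1.31 were the other two. MINOS1 had 3.47 and 2.56 CPM in vehicle and 10.3 and 5.10 with venetoclax, and its value was 0.76 without venetoclax replicate 1 (adjusted p = 0.0284) and 1.77 without replicate 2. The count was 1 without vehicle replicate 1, 2 without vehicle replicate 2, 10 without venetoclax replicate 1 and 0 with the 4 libraries of the comparison alone, settings that called 1.93%, 4.09%, 31.1% and 1.63% of all genes.

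Some genes of that list were lower where TAK-981 was added to venetoclax. In the combination against venetoclax 6 of 15 were lower and 0 higher (40% lower, against 22.0% of all genes lower and 17.6% higher). APOO fell by 1.005 (SE 0.17, adjusted p = 0.00212), CHCHD3 by 0.96 (SE 0.15, adjusted p = 0.0015), DNAJC11 by 0.48 and IMMT by 0.40, and the calls of APOO and CHCHD3 held in all 15 alternatives. This comparison and that of venetoclax with vehicle share the venetoclax libraries. The count was 2 without combination replicate 2 and 2 with the 4 libraries alone, and without venetoclax replicate 2 it was 10, of which 3 were higher, beside 18.2%, 20.3% and 54.9% of all genes called. Against vehicle the combination called 0 of 15, where 12.8% of all genes were higher and 15.1% lower (3 at an unadjusted p under 0.05 by edgeR's quasi-likelihood test, 1 call by DESeq2 and 0 by limma-voom). Without both venetoclax libraries it called 6, of which 5 were higher, beside 47.8% of all genes.

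**Figure D5:**
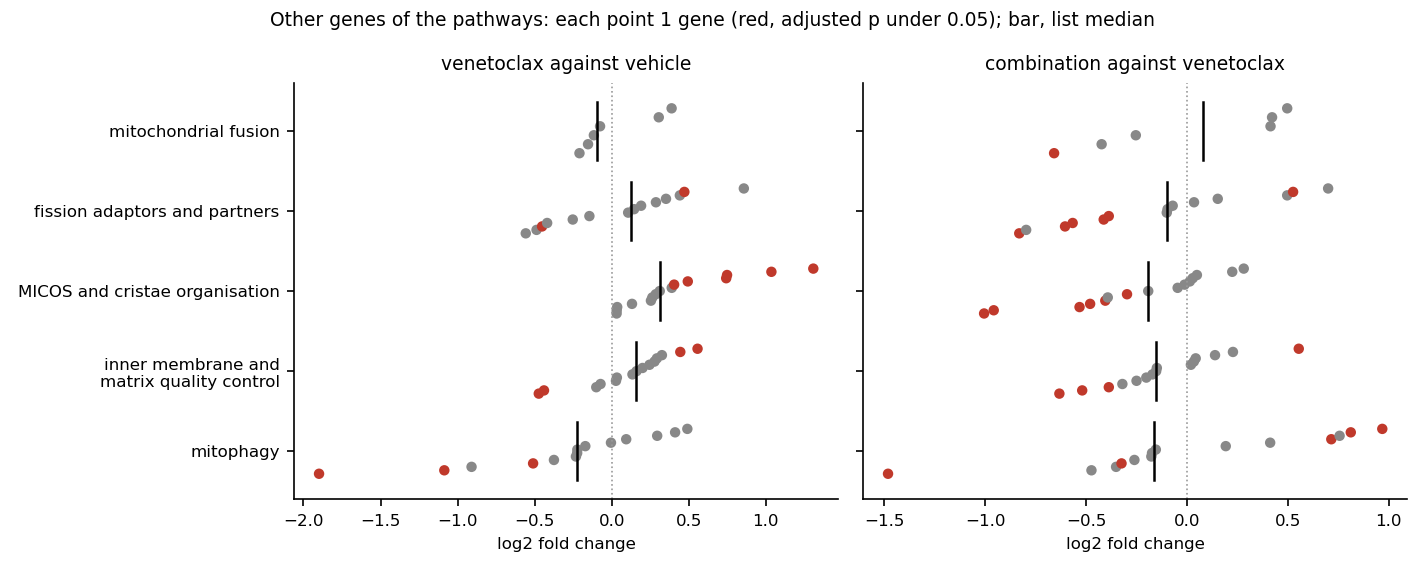
Log2 fold change of each tested gene of 5 pathway lists in venetoclax against vehicle (left) and the combination against venetoclax (right), red where the adjusted p is under 0.05, with the list median as a black bar. The MICOS and cristae list has a median of 0.31 on the left and -0.19 on the right.

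Fission partners gave 1 higher and 1 lower of 14 with venetoclax, where 11.4% of all genes were higher and 9.44% lower. In the combination against venetoclax 5 of the 14 were lower and 1 higher, where 22.0% of all genes were lower and 17.6% higher. AKAP1, which anchors the kinase that restrains DNM1L, rose with venetoclax by 0.47 (SE 0.098, adjusted p = 0.0118) and fell in the combination against it by 0.60 (SE 0.098, adjusted p = 0.00194). MTFP1, an inner membrane protein needed for fission, had 17.6 and 20.4 CPM in vehicle, 14.8 and 17.1 with TAK-981, 11.0 and 14.6 with venetoclax and 9.10 and 8.30 with the combination. The combination libraries were the lowest of the 8, and MTFP1 fell against vehicle by 1.12 log2 units (-1.12, SE 0.18, adjusted p = 0.00234), a call that held in all 16 alternatives. MTFR2 fell in the combination against venetoclax by 0.83. Without combination replicate 1, without replicate 2 or with the 4 libraries alone, 2 of the 14 were called in that comparison, and 3 without TAK-981 replicate 2, beside 22.8%, 18.2%, 20.3% and 31.1% of all genes. The venetoclax call of AKAP1 was lost without either vehicle library and with the 4 libraries of that comparison alone.

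Of 6 further fusion genes, 2 fell and 1 rose with the combination against vehicle, where 15.1% of all genes were lower and 12.8% higher. SLC25A46, an outer membrane protein that works with the fusion machinery, had 72.3 and 72.0 CPM in vehicle, 70.0 and 62.8 with TAK-981, 73.6 and 63.6 with venetoclax and 44.9 and 41.8 with the combination. The combination libraries were the lowest of the 8, and SLC25A46 fell by 0.73 against vehicle (SE 0.11, adjusted p = 0.00181), 0.66 against venetoclax (SE 0.11, adjusted p = 0.00241) and 0.61 against TAK-981 (SE 0.11, adjusted p = 0.0132). The first 2 of these calls held in all alternatives, and the third was lost without any 1 TAK-981 or combination library. MIGA1 at -0.46 and MSTO1 at 0.73 were called with all 8 libraries, but these calls were lost in 9 and 7 of 16 alternatives, including those without any 1 vehicle, TAK-981 or combination library. In the combination against TAK-981, where 2.76% of all genes were higher and 6.03% lower, SLC25A46 was the 1 fusion gene called.

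Among 15 genes of inner membrane and matrix quality control, 2 rose and 2 fell with venetoclax and 1 rose and 3 fell in the combination against venetoclax. Of all genes 11.4% rose and 9.44% fell in the first of these comparisons and 17.6% and 22.0% in the second. AFG3L2, whose protein forms the matrix-facing AAA protease with that of SPG7, rose with venetoclax by 0.45 (SE 0.097, adjusted p = 0.014) and fell in the combination against it by 0.52 (SE 0.097, adjusted p = 0.0036). SPG7 went the other way in the latter comparison, up by 0.55 (SE 0.11, adjusted p = 0.00515). The matrix protease LONP1 fell with venetoclax (-0.47) and with the combination against vehicle (-0.62, SE 0.11, adjusted p = 0.00414). The venetoclax calls of AFG3L2 and LONP1 were lost without either vehicle library and with the 4 libraries alone, where the list gave 0 calls. It gave 9 without venetoclax replicate 1 and 9 without replicate 2, where 31.1% and 40.9% of all genes were called. In the combination against venetoclax 2 were called without combination replicate 2 or with the 4 libraries alone, and 9 without venetoclax replicate 1, beside 18.2%, 20.3% and 42.3% of all genes.

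Mitophagy genes other than PINK1 moved in both directions. Of 14, 3 fell and 0 rose with venetoclax (21.4% lower, against 9.44% of all genes lower). In that comparison 0 were called without either vehicle library or with the 4 libraries alone, 5 without venetoclax replicate 1 and 8 without replicate 2, of which 2 were higher, where 31.1% and 40.9% of all genes were called. The hypoxia-inducible receptor BNIP3 had 189 and 210 CPM in vehicle, 280 and 285 with TAK-981, 84.1 and 24.8 with venetoclax and 19.3 and 19.0 with the combination. BNIP3 fell by 3.38 log2 units with the combination against vehicle (SE 0.45, adjusted p = 0.000925), and its relative BNIP3L fell by 1.26 (SE 0.26, adjusted p = 0.00739). The BNIP3 call held in all 16 alternatives, and that of BNIP3L was lost without vehicle replicate 2 or combination replicate 2. With venetoclax alone the value of BNIP3 was -1.90 (SE 0.42, adjusted p = 0.0148), and it ran from -1.25 without venetoclax replicate 2 to -3.01 without replicate 1. That call was lost without either vehicle library and with the 4 libraries alone. In the combination against venetoclax 3 of the 14 rose and 2 fell, where 17.6% of all genes rose and 22.0% fell. BNIP3 (-1.48, adjusted p = 0.025) and RHOT1, which couples mitochondria to motor proteins (-0.32, adjusted p = 0.0216), fell, and each call was lost in 4 of 15 alternatives, among them those without either combination library. For BNIP3 the value ran from -0.38 without venetoclax replicate 1 to -2.14 without replicate 2. The receptor FKBP8 rose by 0.97 (adjusted p = 0.039), with 0.46 without venetoclax replicate 1 and 1.81 without replicate 2, and lost its call without any 1 vehicle, TAK-981 or combination library. The autophagy receptors OPTN and SQSTM1 had rises of 0.72 (SE 0.12, adjusted p = 0.00193) and 0.81 (SE 0.14, adjusted p = 0.00282) that held in all 15 alternatives. OPTN stood at 86.7 and 96.2 CPM in vehicle, 121 and 117 with TAK-981, 69.4 and 59.4 with venetoclax and 98.6 and 113 with the combination.

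Among enzymes reported to act on the SUMO attached to DNM1L, the SUMO protease SENP2 rose with venetoclax by 0.39 (SE 0.11, adjusted p = 0.0286) and fell in the combination against venetoclax by 0.50 (SE 0.11, adjusted p = 0.00611). The venetoclax call of SENP2 was lost in 7 of 15 alternatives, including those without either vehicle library, and its call in the combination against venetoclax was lost with the 4 libraries alone. Of the 5 enzymes listed, 3 were not called in either comparison. The list median was -0.023 with venetoclax and 0.039 in the combination against venetoclax, beside 0 and -0.021 over all genes. Of all genes 11.4% were higher and 9.44% lower with venetoclax. In the combination against venetoclax 17.6% were higher and 22.0% lower. RNA levels give no measure of SUMO attachment, of OPA1 cleavage or of mitochondrial shape.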

How the data were processed

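Gene counts for 8 KG1a libraries were deposited by the authors as 1 table of whole-number counts per gene with gene length in kilobases; how the length was taken is not given in the sources used here. Per the submitters' processing notes, Trimmomatic, STAR 2.6.0, HTSeq 0.11.1 and edgeR were used with hg38. The sources name different library methods (a SMART-Seq v4 kit and Ribo-Zero depletion), and the strand setting is not given.

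Counts were scaled by TMM and fitted once over all 8 libraries in edgeR 4.0.16 (R 4.3.3) with the quasi-likelihood test after filterByExpr, with Benjamini-Hochberg adjustment over 12843 genes and a threshold of 0.05. SEs are approximate, from the log2 fold change and its F value. Alternatives were DESeq2 (1.42.0) and its size factors, limma-voom (limma 3.58.1), other filters, a replicate block, each library left out and only the compared groups. Leaving out both venetoclax libraries, and the counts for lists under every alternative, were added after seeing the data. On simulated data for TAK-981 against vehicle (12668 genes) 28% of 100 genes made to differ 1.5-fold were called, and 92% of 100 made to differ 2-fold. Of the simulated calls 7.69% were false. Only those genes differed, and only in the TAK-981 group, while 12.2% of all genes were called in the data, so these shares need not carry over.

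The genes and lists were chosen with earlier results of these data known. All 10 genes are named. From each list, genes were taken from the up to 4 called genes per comparison with the smallest p, and not all of these are named. IMMT and MINOS1 for venetoclax, FKBP8 for the combination against venetoclax, the overlapping genes and the marker genes were named outside that rule, the first 3 after their values were seen. Genes most alike were the 3 with the highest Pearson r of log2 CPM (prior count 2) among tested genes of at least 5 CPM on average. 1 gene of the lists is not reported here.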

Additional observations from a re-analysis of the deposited data

How the results depend on the processing

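Over 16 alternatives the 60 values of the 10 genes gave 920 comparisons with the reported value, of which 864 kept their side of the threshold, 46 newly passed it and 10 no longer did. The counts of calls depended mostly on the venetoclax libraries and on libraries left out. With only the libraries of the groups compared, the genes called numbered 4096 between TAK-981 and vehicle (1562 with all 8), 200 between venetoclax and vehicle (2676), and 5740, 2497 and 3746 between the combination and vehicle (3582), venetoclax (5086) and TAK-981 (1130), and of the 10 genes 3, 0, 4, 1 and 1 were called. Without both venetoclax libraries the 3 comparisons free of them called 3863, 6110 and 3678 genes, and 3, 4 and 1 of the 10. With no filter on low counts 1 of the 10 was called with TAK-981 and 1 with venetoclax, and 1875 genes for the combination against TAK-981. Leaving out 1 library gave 336 to 3879 genes and 0 to 3 of the 10 for TAK-981, 253 to 5360 and 0 to 3 for venetoclax, 1431 to 6152 and 0 to 4 for the combination against vehicle, 2386 to 7204 and 2 to 6 against venetoclax, and 65 to 3696 and 0 to 1 against TAK-981. The interaction called 4 genes, against 8 with DESeq2 size factors, 1098 with no filter, 24 with the replicate block, 300 with DESeq2 and 9 with limma-voom, and 0 to 4440 genes and 0 to 4 of the 10 with 1 library left out. The cause was not tested. No label says that a replicate number marks a shared culture or batch. Over the 6 pairs of groups the deviations of same-numbered libraries correlated at 0.375, 0.343, 0.165, 0.155, 0.0199 and -0.041, so a partial pairing was not settled with 2 numbers. With the replicate block 0, 0, 1, 3, 0 and 0 of the 10 were called in the 6 comparisons, the same counts as without it. OMA1, FIS1 and PINK1 had the lowest mean CPM of the 10, with 127 to 484 counts per library.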
